A study of Mus musculus with 6 samples.

Results

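The expression of 36 interferon-stimulated antiviral genes was compared in B16-F10 tumors taken on day 12 of adoptive cell transfer (ACT) supported by IL-2 or by NKTR-214. The genes were taken by symbol from the 21358 entries of the gene table, and all 36 were found there. B16-F10 is a murine melanoma line that grows in C57/BL6 mice, and both groups carried it under the skin. All mice were lymphodepleted by total body irradiation and received a single transfer of activated splenocytes of pmel-1 mice, whose CD8 T cells carry a transgenic T cell receptor for the melanoma antigen gp100, when the tumors had reached at least 150 mm3. The ACT + IL-2 mice then received daily IL-2 for a few days of each cycle, and the ACT + NKTR-214 mice received NKTR-214, an IL-2 carrying releasable polyethylene glycol chains, once per cycle. Each library came from the whole tumor of 1 mouse, with 3 mice in a group. No group without cytokine and no tumor without T cell transfer was sequenced among the libraries analysed, so the values compare both cytokines with each other and not with an untreated tumor.

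Type I interferons bind the receptor IFNAR, whose kinases JAK1 and TYK2 activate the complex ISGF3. This complex, which holds STAT2 and IRF9, binds the interferon-stimulated response element (ISRE) in front of antiviral genes. Interferon-γ acts through another receptor and mainly at gamma-activated sites (GAS), and many genes answer to both kinds of interferon. The products of the antiviral genes sense foreign RNA and DNA, degrade or edit RNA, hold back translation or feed back on the pathway itself.

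Values are FPKM (reads per exon length, corrected for the total of each library) as deposited, given for replicates 1, 2 and 3 of a group in this sequence, and fold changes are those of log2(FPKM + 1), ACT + NKTR-214 minus ACT + IL-2, which understates changes of low genes. Groups were compared with limma over the 14172 genes whose mean reached 0.1 FPKM, at a Benjamini-Hochberg adjusted p under 0.05. All 36 antiviral genes passed this minimum, with means over the 6 tumors from 2.75 FPKM (*Mx2*) to 201 FPKM (*Bst2*). From the steps between the lowest values in the table, the libraries were estimated to hold 18400000 to 21700000 reads, with the lowest count behind any antiviral gene at about 149 reads (*Isg20*), a counting error of 8.19%. ACT + IL-2 replicate 2 stood apart in scale. Its FPKM values summed to 176420 against 217581 to 246514 in the other tumors, it was the lowest of its group in 80.1% of all genes tested, and it was the lowest of its group in 33 of the 36 antiviral genes. Some results that rest on it are also given without it or after scaling every library to the same 75th percentile.

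Most of the antiviral genes did not pass the test in either direction. In ACT + NKTR-214 tumors 4 of the 36 were higher, namely *Oas3*, *Oasl1*, *Isg20* and *Irf7*, and 2 were lower, namely *Eif2ak2* and *Cmpk2*. These shares, 11.1% higher and 5.56% lower, stand beside 20.7% higher and 8.28% lower among all genes tested. The median log2 fold change of the 36 genes was 0.11, against 0.05 for all genes tested, with 19 positive and 17 negative values. The median size of the change regardless of direction was 0.22 for the antiviral genes and 0.23 for all genes tested. In the other 30 genes the log2 fold changes lay between -0.39 (*Ifit3*) and 0.40 (*Oas2*). The 95% intervals of all 30 lay within a 2-fold change in either direction, from -0.80 to 0.79 on the log2 scale, and those of 20 lay within a 1.5-fold change. They rest on limma's moderated variance, which draws in part on other genes. A bound from each gene's own variance was not computed, so the 2-fold limit is not known to hold with it. Without ACT + NKTR-214 replicate 3 the median of the 36 genes was -0.0064. With each gene's own variance in place of the moderated one, limma called 0 of the 36 genes (4 higher and 2 lower at an unadjusted p under 0.05). Changes smaller than these intervals could not be resolved with 3 tumors per group.

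**Figure D1:**
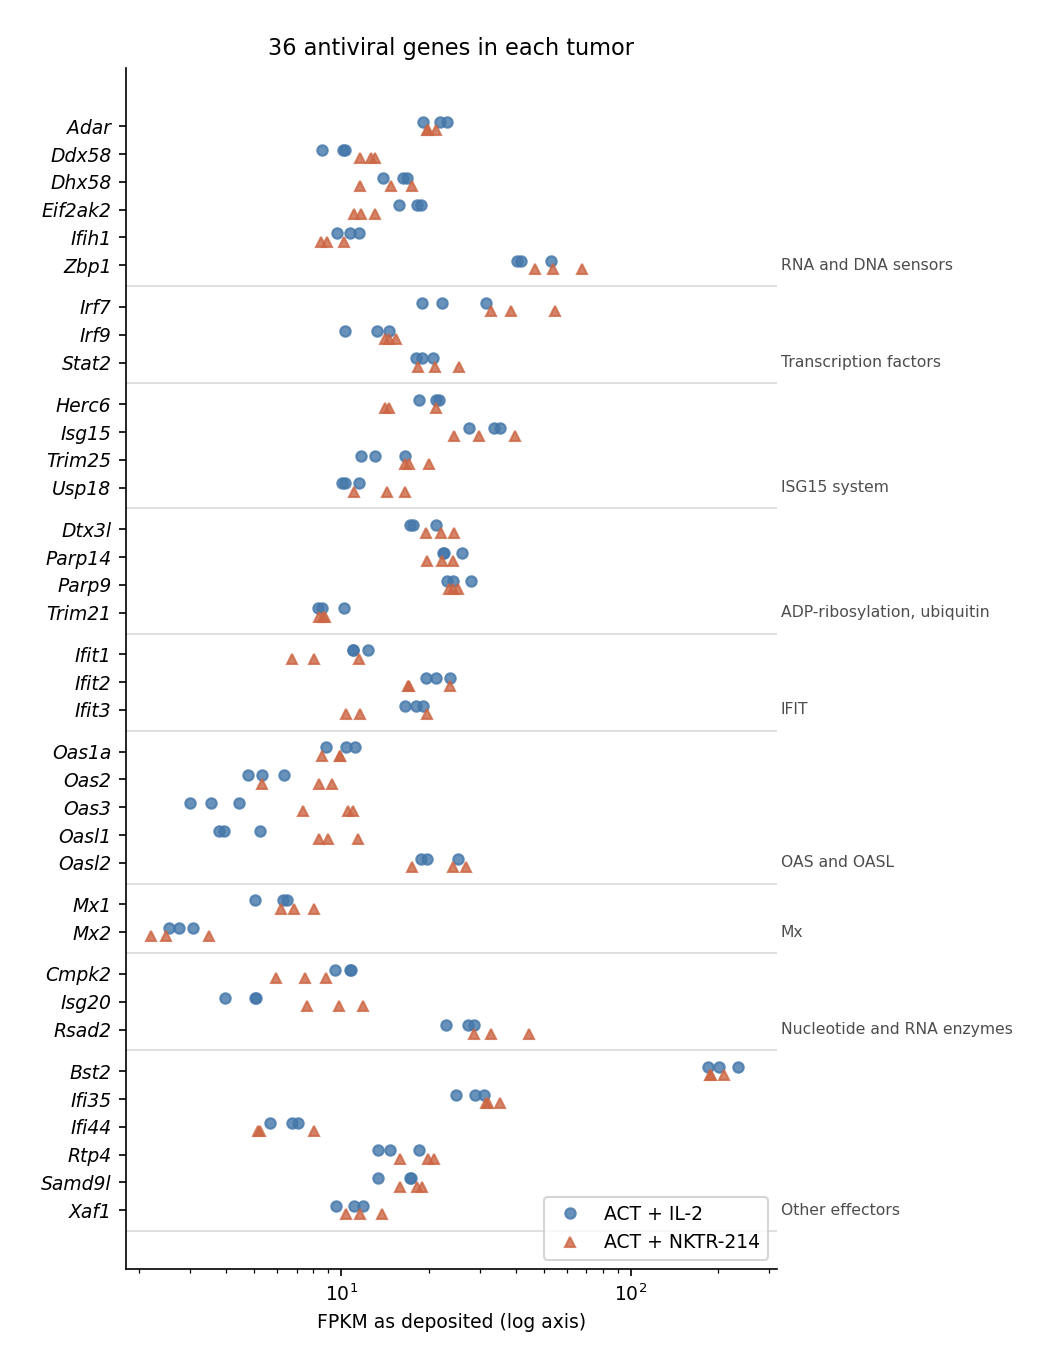
FPKM as deposited (log axis) of each of the 36 antiviral genes in each tumor, grouped by the role of the gene, with circles for the 3 ACT + IL-2 tumors and triangles for the 3 ACT + NKTR-214 tumors. The groups are separate for 10 genes, among them *Oas3*, *Oasl1*, *Isg20* and *Irf7* with NKTR-214 higher and *Eif2ak2* and *Cmpk2* with NKTR-214 lower, and they overlap for 26.

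In 8 antiviral genes every NKTR-214 tumor lay above every IL-2 tumor (22.2%, against 27.1% of all genes tested) and in 2 every one lay below (5.56%, against 15.3%). Besides the genes called higher, the separated ones were *Rsad2*, *Ddx58*, *Trim25* and *Ifi35*, whose adjusted p-values lay between 0.0919 and 0.279. After scaling every library to the same 75th percentile, the median log2 fold change of the 36 genes went from 0.11 to 0.0048, and the count of calls was again 4 higher and 2 lower, beside 23.0% higher and 26.2% lower among all genes tested. On that scale 6 genes were separated upward (16.7%, against 27.9%) and 2 downward (5.56%, against 33.8%).

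**Figure D2:**
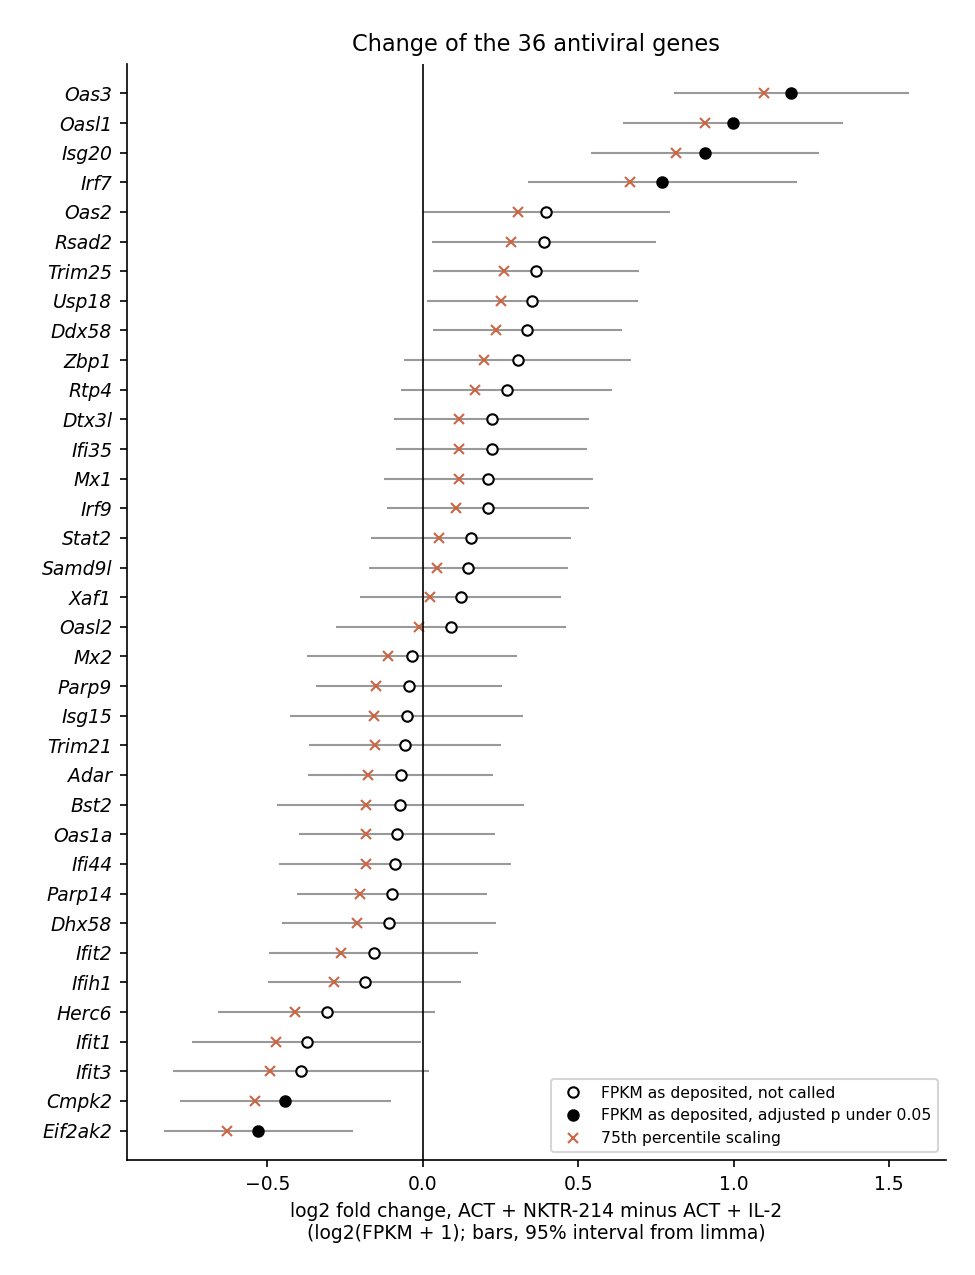
Log2 fold change of each antiviral gene on the log2(FPKM + 1) scale, ACT + NKTR-214 minus ACT + IL-2, with the 95% interval from limma (bars), filled circles for an adjusted p under 0.05 and crosses for the value after 75th percentile scaling. The 4 filled circles on the right run from 0.77 to 1.19, the 2 on the left are -0.53 and -0.44, and the crosses lie to the left of the circles for every gene.

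All of these libraries are whole-tumor RNA, in which more cells of a type and more RNA per cell cannot be told apart. The RNA of cell type markers differed strongly between the groups. Of 4 leukocyte markers (*Ptprc*, *Cd52*, *Coro1a* and *Laptm5*) 4 were higher in ACT + NKTR-214, with summed values of 195, 96.5 and 78.5 FPKM in the IL-2 tumors and 707, 849 and 440.4 FPKM in the NKTR-214 tumors. All 7 T cell markers measured were higher (summed, 10.5 to 26.0 FPKM with IL-2 and 142 to 308 FPKM with NKTR-214), as were all 8 macrophage and monocyte markers (139 to 373 FPKM and 576 to 1006 FPKM). After 75th percentile scaling 7 of these 8 were called by limma, all but *Adgre1* (adjusted p = 0.0915). Melanoma markers, genes of the melanocyte lineage that do not tell B16-F10 from other pigment cells, were abundant in every library. They summed to 5604 to 7182 FPKM with IL-2 and 2756 to 3896 FPKM with NKTR-214, and 6 of 8 were lower there. Among all genes tested 20.7% were higher and 8.28% lower, or 23.0% and 26.2% after the scaling. Of the other marker genes tested, 5 of 5 for neutrophils, 5 of 6 for fibroblasts and pericytes and 4 of 6 for dendritic cells were higher. Higher were also 2 of 4 for NK cells, 1 of 5 for endothelial cells and 0 of 2 for B cells. The antiviral genes summed to 676 to 850 FPKM with IL-2 and 716 to 901 FPKM with NKTR-214, ranges that overlap. The part of the cell makeup in the antiviral results was not tested.

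The promoters of the antiviral genes were searched for the elements of the interferon response. RefSeq promoters (250 bases before to 50 bases after the start site, GRCm38.p6) were found for 27 of the 36 genes, and 12 of these 27 (44.4%) held the ISRE core, searched as GAAA, any 2 bases and GAAA, on either strand, against 3.94% of the 10991 genes tested that have a promoter in the table. The GAS motif TTCNNNGAA, which is its own reverse complement, was found in 7 of the 27 (25.9%, against 8.55%), while 3 genes held both and 11 neither. A match is a run of letters and not a measured binding site. The sites of the ISRE core are shown for genes of each behavior, *Oas3* among those that rose, *Eif2ak2* which fell, and others that were not called. The core is in capitals with 5 bases on either side in lower case, 5′ to 3′ on the strand of the gene as RefSeq gives it. For a gene with several cores 1 is shown, and *Ifit1* and *Ifit3* each hold another that does not overlap the core shown. Capitals that begin with TTTC hold the core on the opposite strand.
Oas3 (chr5:120777720-120777739): gaggaGAAAACGAAAgtgaa
Eif2ak2 (chr17:78882540-78882559): gccggGAAAACGAAAcagaa
Isg15 (chr4:156200876-156200895): aaaagGAAACCGAAAcagaa
Ifit1 (chr19:34640799-34640818): ctcagTTTCAGTTTCtcact
Ifit3 (chr19:34583402-34583421): gtctgTTTCAGTTTCtactt
Rsad2 (chr12:26456558-26456577): ccaacTTTCATTTTCagaaa
Ddx58 (chr4:40239809-40239828): ggcagTTTCGATTTCctatg
Ifih1 (chr2:62646209-62646228): gaatcGAAACAGAAAccgat
Oas1a (chr5:120907531-120907550): ctcggGAAATGGAAActgaa
Bst2 (chr8:71537588-71537607): tccagGAAAATGAAActgaa
Stat2 (chr10:128270271-128270290): cctggTTTCAGTTTCctttc
Trim21 (chr7:102565455-102565474): gagagGAAACTGAAAgtgaa

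The whole promoters of *Oas3*, the gene that rose most, *Eif2ak2*, the gene that fell most, and *Ifit1*, which was not called, are printed to show the element in its context. The ISRE cores are in capitals.
Oas3 (chr5:120777610-120777909, minus strand): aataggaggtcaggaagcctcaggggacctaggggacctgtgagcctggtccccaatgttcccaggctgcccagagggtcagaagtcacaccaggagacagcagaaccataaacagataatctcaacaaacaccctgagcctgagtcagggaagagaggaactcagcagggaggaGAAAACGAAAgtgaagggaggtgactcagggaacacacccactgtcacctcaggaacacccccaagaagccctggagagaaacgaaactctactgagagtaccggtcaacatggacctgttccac
Eif2ak2 (chr17:78882523-78882822, minus strand): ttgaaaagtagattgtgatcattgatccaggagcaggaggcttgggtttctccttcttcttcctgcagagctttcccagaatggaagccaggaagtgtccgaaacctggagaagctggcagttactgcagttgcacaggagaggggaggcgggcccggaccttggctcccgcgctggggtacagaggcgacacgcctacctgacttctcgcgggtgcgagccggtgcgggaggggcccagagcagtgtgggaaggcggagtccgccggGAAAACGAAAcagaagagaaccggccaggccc
Ifit1 (chr19:34640639-34640938, plus strand): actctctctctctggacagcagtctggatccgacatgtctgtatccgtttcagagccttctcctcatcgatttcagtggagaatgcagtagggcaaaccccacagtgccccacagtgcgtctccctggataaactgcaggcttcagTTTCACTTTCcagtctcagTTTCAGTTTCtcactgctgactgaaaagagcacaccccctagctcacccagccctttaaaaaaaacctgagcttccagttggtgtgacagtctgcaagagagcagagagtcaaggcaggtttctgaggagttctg
The core starts 75 bases before the start site in *Oas3* and 18 bases after it in *Eif2ak2*, and *Ifit1* holds a pair of cores at 104 and 85 bases before it. Among the genes called higher or lower, *Oasl1*, *Irf7* and *Cmpk2* had a promoter in the table without either motif, and *Isg20* held the GAS motif alone.

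The synthetases of the OAS family, which make oligoadenylates that activate the RNA-degrading enzyme RNase L, were split. *Oas3* (chromosome 5, 120753098 to 120777661, GRCm38 for this and all other genes), the longest of them, had 4.43, 3.00 and 3.55 FPKM in the IL-2 tumors and 7.39, 11.0 and 10.5 FPKM in the NKTR-214 tumors. Every NKTR-214 tumor lay above every IL-2 tumor, and the mean rose 2.63-fold (log2 fold change 1.19, standard error 0.18, adjusted p = 0.00011). *Oasl1* (chromosome 5, 114923240 to 114937915) encodes an OAS-like protein without synthetase activity that is known to hold back translation of *Irf7*. It had 5.21, 3.78 and 3.92 FPKM in the IL-2 tumors and 8.39, 11.4 and 8.98 FPKM in the NKTR-214 tumors. The groups were again separate, with a 2.23-fold higher mean in ACT + NKTR-214 (log2 fold change 1.00, standard error 0.17, adjusted p = 0.000285).

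The other family members were not called. *Oas1a* (chromosome 5, 120896256 to 120907521), which lies in the same gene cluster as *Oas3*, had 11.1, 8.83 and 10.4 FPKM with IL-2 and 8.60, 9.90 and 9.92 FPKM with NKTR-214, with overlapping groups and a log2 fold change of -0.083 (95% interval -0.40 to 0.23, adjusted p = 0.719). Of the 50-base windows of *Oas1a* transcripts, 57.6% also occur in its paralog *Oas1g*, so the reads of the pair may have been divided or lost by the counting. *Oasl2*, the neighbor of *Oasl1*, had 25.4, 18.8 and 19.8 FPKM with IL-2 and 17.6, 24.2 and 27.0 FPKM with NKTR-214, and its log2 fold change of 0.091 (adjusted p = 0.74) became -0.013 after 75th percentile scaling. The log2 value of *Oas2* was 0.40 (adjusted p = 0.127), and ACT + NKTR-214 replicate 1 (5.32 FPKM) lay within the IL-2 range. It passed the threshold when ACT + NKTR-214 replicate 1 was left out (adjusted p = 0.0241) and likewise on leaving out ACT + IL-2 replicate 1 (adjusted p = 0.0406).

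Of the nucleotide and RNA enzymes, *Isg20*, an exonuclease that degrades RNA, rose and *Cmpk2* fell. *Isg20* (chromosome 7, 78913424 to 78920396) had 5.08, 3.96 and 5.01 FPKM in the IL-2 tumors and 7.59, 9.82 and 11.9 FPKM in the NKTR-214 tumors, without overlap and 2.08-fold higher in the mean (log2 fold change 0.91, standard error 0.17, adjusted p = 0.000874). *Cmpk2* (chromosome 12, 26469204 to 26479837), a nucleotide kinase, had 10.8, 9.52 and 10.7 FPKM with IL-2 and 5.93, 7.48 and 8.86 FPKM with NKTR-214, also without overlap (log2 fold change -0.44, standard error 0.16, adjusted p = 0.0489). The call of *Cmpk2* was close to the threshold. It was kept when ACT + NKTR-214 replicate 3 was left out (adjusted p = 0.0165) and lost in each of the other 5 fits that left out 1 tumor, with adjusted p-values from 0.059 to 0.284. *Rsad2* (chromosome 12, 26442746 to 26456452) encodes viperin, which converts CTP into a chain-terminating nucleotide, and is transcribed away from its neighbor *Cmpk2*. It had 27.5, 23.0 and 28.7 FPKM with IL-2 and 28.8, 32.8 and 44.3 FPKM with NKTR-214, separate between the groups but not past the threshold (log2 fold change 0.39, 95% interval 0.03 to 0.75, adjusted p = 0.099).

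*Irf7*, the transcription factor that amplifies type I interferon genes, was the only one of the 3 transcription factor genes called. It (chromosome 7, 141262706 to 141266481) had 31.6, 18.9 and 22.2 FPKM in the IL-2 tumors and 33.0, 54.7 and 38.5 FPKM in the NKTR-214 tumors, so that the highest IL-2 tumor lay just below the lowest NKTR-214 tumor (log2 fold change 0.77, standard error 0.20, adjusted p = 0.0092). Without ACT + IL-2 replicate 2 its log2 fold change was 0.62 and the call was lost (adjusted p = 0.0954), and after 75th percentile scaling it was 0.67 and the call was kept (adjusted p = 0.0283). The other 2 genes, which encode subunits of ISGF3, were not called. *Stat2* had 20.7, 18.0 and 19.0 FPKM with IL-2 and 18.4, 21.1 and 25.5 FPKM with NKTR-214, with a log2 fold change of 0.16 (95% interval -0.17 to 0.48, adjusted p = 0.483), and *Irf9* had 12.7 ± 2.20 FPKM with IL-2 against 14.7 ± 0.676 with NKTR-214 (SD, n = 3 tumors), a log2 difference of 0.21 (adjusted p = 0.338).

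Among the 6 sensor genes, *Eif2ak2* fell and none rose. *Eif2ak2* (chromosome 17, 78852564 to 78882573) encodes PKR, the kinase that stops translation when it binds double-stranded RNA. It had 18.3, 15.8 and 18.9 FPKM in the IL-2 tumors and 11.7, 11.1 and 13.1 FPKM in the NKTR-214 tumors. Every NKTR-214 tumor was below every IL-2 tumor, and the mean was 0.675 of that in ACT + IL-2 (log2 fold change -0.53, standard error 0.14, adjusted p = 0.0107). The call was lost without ACT + IL-2 replicate 3 (adjusted p = 0.0608) and without ACT + NKTR-214 replicate 2 (adjusted p = 0.067), and the value stayed between -0.601 and -0.48 over the 6 fits. The RNA sensor genes *Ddx58* (RIG-I) and *Ifih1* (MDA5) had values of opposite sign. *Ddx58* had 10.1, 8.59 and 10.3 FPKM with IL-2 and 11.6, 13.1 and 12.6 FPKM with NKTR-214, a log2 fold change of 0.34 (95% interval 0.03 to 0.64, adjusted p = 0.0919). *Ifih1* had 10.6 ± 0.950 FPKM with IL-2 against 9.21 ± 0.855 with NKTR-214 (SD, n = 3 tumors), a log2 fold change of -0.19 (95% interval -0.50 to 0.12, adjusted p = 0.371). *Dhx58* (LGP2), *Adar*, which edits double-stranded RNA, and *Zbp1*, a sensor of Z-form nucleic acids, had log2 fold changes of -0.11, -0.071 and 0.30, with adjusted p-values of 0.66, 0.746 and 0.205. Of the *Adar* exon bases, 16.8% also belong to *Chrnb2*. Exon bases shared with other annotated genes made up 16.8% in *Ifi35*, 13.9% in *Rtp4* and 13.7% in *Herc6*.

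None of the 3 IFIT genes, whose products bind viral RNA ends and block its translation, was called. *Ifit3* (chromosome 19, 34583531 to 34588731) had 19.1, 16.6 and 18.1 FPKM in the IL-2 tumors and 10.4, 11.6 and 19.8 FPKM in the NKTR-214 tumors. Its values with NKTR-214 spread from 10.4 to 19.8 FPKM and enclosed the IL-2 range of 16.6 to 19.1 FPKM. The log2 fold change of -0.39 had a 95% interval of -0.80 to 0.02 (adjusted p = 0.147). *Ifit1* had 12.3, 11.0 and 10.9 FPKM with IL-2 and 6.77, 8.03 and 11.5 FPKM with NKTR-214, where replicate 3 of ACT + NKTR-214 lay within the IL-2 range and the other two below it (log2 fold change -0.37, adjusted p = 0.121). *Ifit2* had 23.7, 19.6 and 21.2 FPKM with IL-2 and 17.2, 17.0 and 23.8 FPKM with NKTR-214 (log2 fold change -0.16, adjusted p = 0.498). When ACT + NKTR-214 replicate 3 was left out, *Ifit3* (-0.66, adjusted p = 0.00311) and *Ifit1* (-0.57, adjusted p = 0.0151) were called lower. The value of *Ifit3* is uncertain, since 51.2% of its 50-base windows also occur in *Ifit3b*.

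The ubiquitin-like protein ISG15 is attached to other proteins by HERC6 in the mouse and removed by USP18, which also blocks signaling at IFNAR. *Isg15* (chromosome 4, 156199424 to 156200818) had 35.3, 27.6 and 33.6 FPKM in the IL-2 tumors and 24.5, 29.96 and 39.9 FPKM in the NKTR-214 tumors, with a log2 fold change of -0.051 (95% interval -0.43 to 0.32, adjusted p = 0.863). The NKTR-214 tumors lay on both sides of the IL-2 tumors. *Herc6* had 21.2, 18.6 and 21.8 FPKM with IL-2 and 14.6, 14.1 and 21.2 FPKM with NKTR-214 (log2 fold change -0.31, adjusted p = 0.179) and was called lower only in the fit without ACT + NKTR-214 replicate 3 (-0.48, adjusted p = 0.0393). *Usp18* differed by 0.35 on the log2 scale (adjusted p = 0.112). *Trim25*, a ubiquitin ligase of the RIG-I pathway, had 16.6, 11.7 and 13.04 FPKM with IL-2 and 17.1, 20.00 and 16.6 FPKM with NKTR-214 (log2 fold change 0.36, adjusted p = 0.0943), where 16.60 and 16.61 FPKM are the nearest tumors of the groups. It passed with quantile normalization (adjusted p = 0.0468) and without ACT + IL-2 replicate 1 (adjusted p = 0.0254).

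*Parp9* and *Dtx3l*, whose proteins form a complex of an ADP-ribosyltransferase and a ubiquitin ligase, lie head to head on chromosome 16 and share 9.4% and 8.0% of their exon bases with each other. *Dtx3l* had 21.3, 17.3 and 17.7 FPKM with IL-2 and 19.6, 22.0 and 24.5 FPKM with NKTR-214 (log2 fold change 0.22, adjusted p = 0.29). *Parp14*, another ADP-ribosyltransferase of this region, had 26.1, 22.6 and 22.4 FPKM with IL-2 and 19.8, 22.2 and 24.2 FPKM with NKTR-214 (log2 fold change -0.098, adjusted p = 0.654). *Parp9* and the antibody receptor gene *Trim21* differed by -0.044 and -0.057 on the log2 scale, at adjusted p-values of 0.849 and 0.811. None of these 4 genes passed the threshold in any of the 6 fits that left out 1 tumor.

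The dynamin-like GTPases *Mx1* and *Mx2* are defective in many inbred strains including C57BL/6, and the annotation used here lists *Mx2* as a polymorphic pseudogene. Their RNA was nevertheless measured. *Mx1* (chromosome 16, 97447035 to 97462907) had 6.48, 5.02 and 6.27 FPKM with IL-2 and 6.16, 8.05 and 6.83 FPKM with NKTR-214 (log2 fold change 0.21, adjusted p = 0.353), and *Mx2* had 3.06, 2.54 and 2.74 FPKM with IL-2 and 2.47, 2.20 and 3.49 FPKM with NKTR-214 (log2 fold change -0.036, adjusted p = 0.895). The groups overlapped for both.

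None of the 6 remaining effectors was called. *Bst2* encodes tetherin, which holds budding virions at the cell surface, and was the most abundant of the 36 genes, with 235, 185 and 201 FPKM with IL-2 and 189, 188 and 211 FPKM with NKTR-214 (log2 fold change -0.073, 95% interval -0.47 to 0.32, adjusted p = 0.811). *Rtp4* had 18.5, 13.3 and 14.8 FPKM with IL-2 and 16.0, 19.8 and 20.9 FPKM with NKTR-214 and the largest value of this group (log2 fold change 0.27, adjusted p = 0.229). *Ifi44* had 6.72, 5.68 and 7.09 FPKM with IL-2 and 5.13, 5.25 and 8.04 FPKM with NKTR-214 and the lowest (log2 fold change -0.09, adjusted p = 0.746). *Ifi35*, *Samd9l* and *Xaf1* had log2 fold changes of 0.22, 0.15 and 0.12, with adjusted p-values of 0.279, 0.509 and 0.596.

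Ratios of paired genes within a tumor do not depend on the scaling of the libraries. They were taken for 6 pairs of neighbors, paralogs or partners, chosen after the values were seen. The ratio of *Rsad2* to *Cmpk2* was 2.55 ± 0.132 with IL-2 and 4.75 ± 0.325 with NKTR-214 (SD, n = 3 tumors). *Oas3* relative to *Oas1a* gave 0.360 ± 0.0338 with IL-2 and 1.01 ± 0.133 with NKTR-214 (SD, n = 3 tumors). *Oasl1* relative to *Oasl2* gave 0.201 ± 0.00370 with IL-2 and 0.427 ± 0.0823 with NKTR-214 (SD, n = 3 tumors). For these, for *Ddx58* to *Ifih1* (0.910 ± 0.0433 with IL-2 and 1.36 ± 0.109 with NKTR-214, SD, n = 3 tumors) and for *Irf7* to *Irf9* (1.89 ± 0.253 with IL-2 and 2.86 ± 0.770 with NKTR-214, SD, n = 3 tumors), all 3 NKTR-214 tumors lay above all 3 IL-2 tumors. Each had p = 0.1 in an exact two-sided permutation test, the smallest that 3 against 3 tumors allow, and 0.12 after Benjamini-Hochberg adjustment over the 6 pairs. The ratio of *Mx1* to *Mx2* overlapped between the groups (exact permutation p = 0.4). With this test none of the 6 pairs could pass the threshold.

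**Figure D3:**
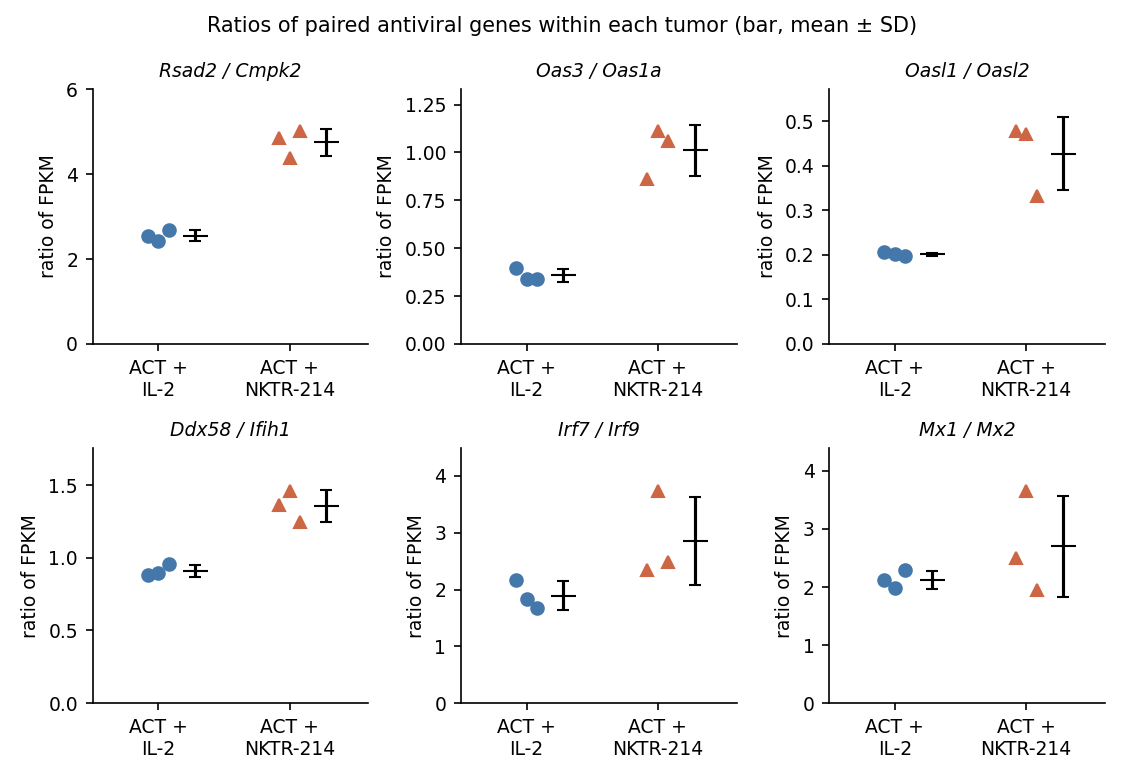
Ratio of the FPKM values of paired antiviral genes in each tumor (linear axes from 0), with circles for ACT + IL-2, triangles for ACT + NKTR-214 and the mean ± SD of each group beside its points. The groups are separate in every panel but that of *Mx1* to *Mx2*, and the ratio of *Rsad2* to *Cmpk2* goes from 2.55 to 4.75.

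The spread of the antiviral genes was wider among the ACT + NKTR-214 tumors than among the ACT + IL-2 tumors. With 75th percentile scaling, which takes out the low scale of ACT + IL-2 replicate 2, the median coefficient of variation over the 36 genes was 6.64% in ACT + IL-2 and 22.2% in ACT + NKTR-214, against 8.47% and 10.9% over all genes tested. The coefficient was larger in ACT + NKTR-214 in 34 of 36 antiviral genes and in 54.1% of all genes tested. The genes are not independent of each other, and no test was made of this difference. On FPKM as deposited the medians were 11.3% and 16.7%, and the coefficient was larger in ACT + NKTR-214 in 21 of 36 genes, while the medians over all genes tested were 15.6% and 11.8%.

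Within ACT + NKTR-214 the same tumors were high and low for most of these genes. On the scaled values replicate 3 was the highest of its group in 31 of the 36 genes and replicate 1 the lowest in 31, against 38.7% and 28.2% of all genes tested. As deposited, replicate 3 was the highest in 28 and replicate 1 the lowest in 27, against 14.6% and 14.2% of all genes tested. *Isg15* reached 41.6 FPKM in replicate 3 and 22.6 FPKM in replicate 1 on the scaled values, while its 3 ACT + IL-2 values ran from 33.2 to 33.6 FPKM. The spread was widest for *Ifit3* (44.0%), *Ifit1* (34.9%) and *Ifi44* (34.0%), and narrowest for *Trim25* (8.81%). Leukocyte markers had another order, with the lowest sum of ACT + NKTR-214 in replicate 3, and T cell markers summed to 273, 308 and 142 FPKM in replicates 1, 2 and 3. *Ifng* was also lowest in replicate 3. Neutrophil markers summed to 22.3, 50.3 and 36.6 FPKM and were lowest in replicate 1. Fibroblast and pericyte markers (384, 743 and 492 FPKM) and the scarce B cell markers (0.960, 1.54 and 1.01 FPKM) were also lowest there. These lists were highest in replicate 2, not in replicate 3. Of the 19 genes of a list of interferon-γ targets, replicate 3 was the highest of its group in 13, the lowest in 3, and replicate 1 the lowest in 11 on the scaled values. As deposited, replicate 3 was the highest in 10 and the lowest in 7 of them, and replicate 1 the lowest in 8. The part of these differences in the spread of the antiviral genes was not tested.

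**Figure D4:**
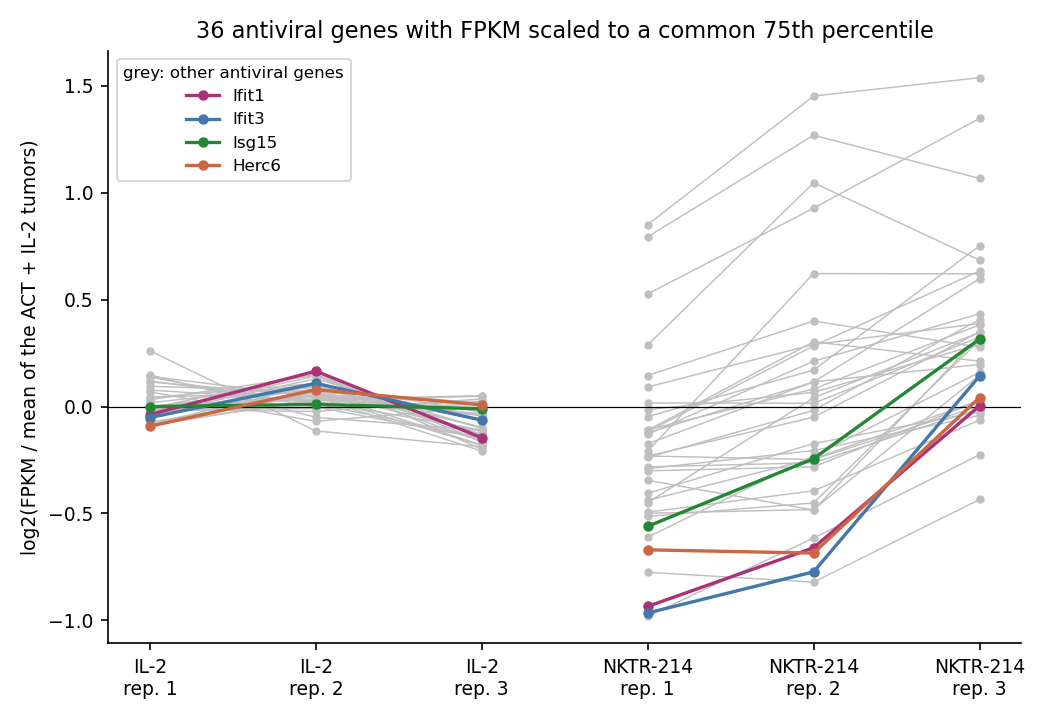
Log2 ratio of each antiviral gene's FPKM in each tumor to its mean in ACT + IL-2, after scaling to a common 75th percentile, with a line joining the values of a gene within a group and *Ifit1*, *Ifit3*, *Isg15* and *Herc6* in color. The replicates have no order. The ACT + IL-2 tumors lie close to 0, and in ACT + NKTR-214 replicate 3 is the highest of its group in 31 of 36 genes.

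The genes that could feed this response were compared next. All 20 genes of type I and type III interferons in the list were under a mean of 0.1 FPKM and were not tested, and 15 of them were listed at 0 in all 6 tumors. *Ifnb1* had 0.0545, 0 and 0.0622 FPKM with IL-2 and 0, 0.160 and 0.164 FPKM with NKTR-214. *Ifnk* reached 0.266 FPKM, the highest value of the list, in ACT + IL-2 replicate 2, and the summed list ranged from 0.0545 to 0.283 FPKM with IL-2 and from 0.232 to 0.368 FPKM with NKTR-214. Values this low give no order of the groups, and reads shared by near-identical interferon-α genes may have been lost by the counting. Plasmacytoid dendritic cells are a known source of type I interferon, and their marker *Siglech* stayed at or under 0.101 FPKM in all 6 tumors. Of the 6 markers of this cell type 3 reached the minimum, 0 were called by limma (1 at an unadjusted p under 0.05), and their sums ranged from 3.49 to 4.73 FPKM and from 4.13 to 5.87 FPKM.

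The gene of interferon-γ was higher in ACT + NKTR-214. *Ifng* had 2.25, 1.05 and 1.46 FPKM in the IL-2 tumors and 7.83, 7.32 and 5.57 FPKM in the NKTR-214 tumors, a log2 difference of 1.63 (adjusted p = 8.29e-06). Of 10 genes of interferon receptors and their kinases, 5 were higher in ACT + NKTR-214 and 0 were lower in limma, at an unadjusted p under 0.05 as well, beside 20.7% higher and 8.28% lower among all genes tested. *Ifngr1*, a chain of the interferon-γ receptor, had 16.7, 9.99 and 9.47 FPKM with IL-2 and 72.6, 81.2 and 43.1 FPKM with NKTR-214 (log2 fold change 2.35, standard error 0.23, adjusted p = 1.93e-06). *Ifnar2*, a chain of the type I receptor, rose from 13.9 to 23.4 FPKM in the mean (log2 fold change 0.71, standard error 0.16, adjusted p = 0.0033), and *Jak1*, *Jak2* and *Tyk2* rose by 0.87, 0.64 and 0.63 on the log2 scale (adjusted p = 0.00077, 0.00353 and 0.00574). *Ifnar1*, *Ifngr2*, *Ifnlr1* and *Il10rb* were not called, with log2 fold changes from 0.03 to 0.26.

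The 19 genes of the interferon-γ list were likewise divided. In ACT + NKTR-214 7 (36.8%) were higher and 0 lower in limma (0 lower at an unadjusted p under 0.05), beside the 20.7% and 8.28% of all genes tested, and the median log2 fold change of the 19 genes was 0.15. The largest change was that of *Nos2*, the inducible nitric oxide synthase (12.3 ± 5.08 FPKM with IL-2 against 53.9 ± 6.35 with NKTR-214, SD, n = 3 tumors, log2 fold change 2.11, standard error 0.21, adjusted p = 1.96e-06). *Cd274*, which encodes PD-L1, also rose (28.9 ± 5.06 FPKM with IL-2 against 70.5 ± 9.28 with NKTR-214, SD, n = 3 tumors, log2 fold change 1.26, standard error 0.16, adjusted p = 2.95e-05). The smallest called were *Irf8* (0.53, adjusted p = 0.0265) and the immunoproteasome subunit gene *Psmb8* (0.64, adjusted p = 0.0136). Of the 6 fits that left out 1 tumor, the call of *Irf8* was kept in those without ACT + IL-2 replicate 1 or ACT + NKTR-214 replicate 3 and lost in the others (adjusted p up to 0.148). That of *Psmb8* was lost on leaving out ACT + IL-2 replicate 3 or either of ACT + NKTR-214 replicates 1 and 2 (adjusted p up to 0.0845). The chemokine gene *Cxcl9* had 81.9, 56.4 and 46.4 FPKM with IL-2 and 61.4, 73.5 and 42.7 FPKM with NKTR-214 (log2 fold change -0.051, adjusted p = 0.892). *Cxcl10*, *Irf1*, *Gbp2* and *Ciita*, common readouts of interferon, had log2 fold changes of 0.033, -0.093, 0.07 and 0.13 and were not called. *Cxcl11*, a chemokine gene of the same family as *Cxcl9* and *Cxcl10*, was higher (0.81, adjusted p = 0.00024), as was *Socs1*, a feedback inhibitor gene (0.87, adjusted p = 0.00225). The genes from *Cxcl9* to *Socs1* were named after their values were seen.

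Of 19 genes of nucleic acid sensing and interferon induction, 9 were higher and 0 lower (0 lower at an unadjusted p under 0.05 in limma), a higher share of 47.4% beside 20.7% of all genes tested. The median log2 fold change was 0.46. The endosomal RNA receptor genes *Tlr8* (2.86 ± 1.76 FPKM with IL-2 against 9.14 ± 1.69 with NKTR-214, SD, n = 3 tumors, log2 fold change 1.47, standard error 0.24, adjusted p = 0.000241) and *Tlr7* (1.93 ± 0.921 FPKM with IL-2 against 6.23 ± 2.05 with NKTR-214, SD, n = 3 tumors, log2 fold change 1.31, standard error 0.22, adjusted p = 0.000325) rose most. The smallest called were *Tmem173*, which encodes the adaptor STING (0.46, adjusted p = 0.0403), and the kinase gene *Irak4* (0.55, adjusted p = 0.0138). *Tmem173* kept its call in the fits without ACT + IL-2 replicate 1 or ACT + NKTR-214 replicate 3 and lost it in the other 4 (adjusted p up to 0.234), and *Irak4* lost it without ACT + NKTR-214 replicate 2 (adjusted p = 0.0833). Without ACT + IL-2 replicate 2 the count of higher genes went to 4, while the share among all genes tested went to 14.1%. With 75th percentile scaling 11 were higher and 2 lower, beside 23.0% and 26.2% of all genes tested. Among 14 inhibitors of interferon signaling 7 were higher and 1 lower, beside the same shares of 20.7% and 8.28% as deposited. *Tnfaip3*, which encodes A20 (1.62, adjusted p = 1.37e-05), and the ubiquitin ligase gene *Rnf125* (1.40, adjusted p = 2.99e-06) rose most, *Irf2* (0.68, adjusted p = 0.00448) rose least, and *Otud3* fell (-0.46, adjusted p = 0.0391), a call lost on leaving out ACT + IL-2 replicate 3 or either of ACT + NKTR-214 replicates 1 and 2 (adjusted p up to 0.203).

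Of 60 further interferon-stimulated genes measured, 26 (43.3%) were higher and 3 (5.0%) lower in ACT + NKTR-214, beside 20.7% and 8.28% of all genes tested, with a median log2 fold change of 0.30. After 75th percentile scaling 25 were higher and 6 lower, beside 23.0% and 26.2% of all genes tested. The largest changes were those of *Ifitm1*, a membrane protein gene of virus entry (1.56 ± 0.484 FPKM with IL-2 against 54.8 ± 4.41 with NKTR-214, SD, n = 3 tumors, log2 fold change 4.46, standard error 0.16, adjusted p = 1.29e-10), and *Epsti1* (3.91 ± 1.61 FPKM with IL-2 against 23.4 ± 9.09 with NKTR-214, SD, n = 3 tumors, log2 fold change 2.28, standard error 0.26, adjusted p = 8.72e-06). *Apol9a* (-0.63, adjusted p = 0.00932), *Slfn9* (-0.62, adjusted p = 0.00778) and *Apol9b* (-0.47, adjusted p = 0.0291) were lower, and the call of *Apol9b* was lost on leaving out ACT + IL-2 replicate 1 or either of ACT + NKTR-214 replicates 1 and 2 (adjusted p up to 0.187). The difference in counts between these lists and the 36 antiviral genes was not tested, since the lists were drawn up with earlier results of these data known.

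**Figure D5:**
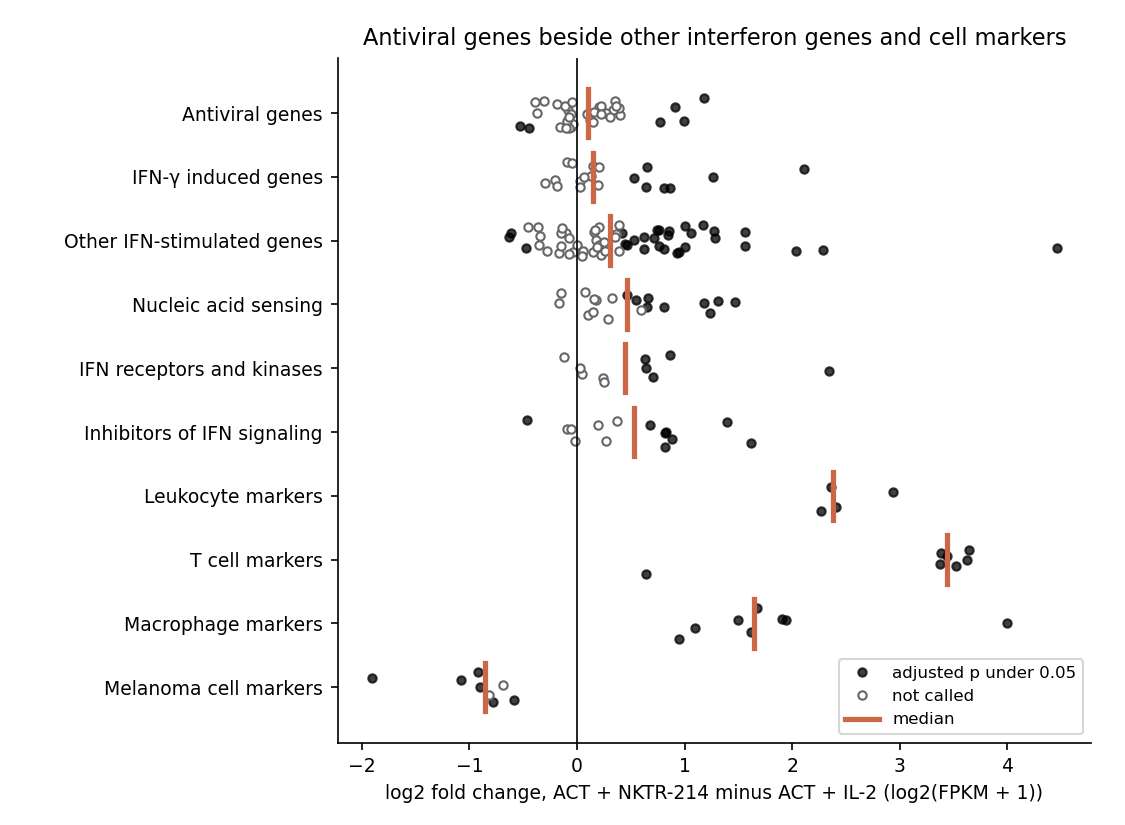
Log2 fold change on the log2(FPKM + 1) scale of every tested gene of the antiviral genes, 5 other interferon lists and 4 marker lists, with filled points for an adjusted p under 0.05 and a bar for the median of each list. The median is 0.11 for the antiviral genes, 2.38 for leukocyte markers, 3.44 for T cell markers and -0.86 for melanoma cell markers.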

How the data were processed

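RNA of 6 whole tumors, 3 per group, was sequenced with 50-base single-end reads, which the authors mapped with HISAT2 2.0.4 to GRCm38 and counted per gene with HTSeq. The deposited table gives linear FPKM for each tumor, and no further step of scaling is described. The gene annotation, the strand setting and the handling of reads with several matches are not given in the sources used here. Groups were taken from the sample titles, and all 6 columns were used. The groups were compared with limma 3.58.1 (R 4.3.3) on log2(FPKM + 1), with an intensity trend and Benjamini-Hochberg adjustment over all 14172 genes that reached a mean of 0.1 FPKM. P-values of limma rest on the spread between the 3 mice of each group, moderated toward that of other genes of like intensity.

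The 36 genes, the 6 other interferon lists and the 11 marker lists were chosen with earlier results of these data known. Within each role the genes with the largest and smallest log2 fold change are given by tumor, as is every gene that fell. Of the other lists, the 2 called genes with the highest and the 2 with the lowest signed log2 fold change are named, beside receptors and kinases and *Apol9b*. *Oasl1*, *Oasl2*, *Rsad2*, *Ifit1*, *Isg15* and *Bst2* were added after their values were seen. Depth was estimated from whole steps among low values (788 of 1023 low genes were whole within 5%) and GENCODE vM21 exon lengths, so it is approximate. Positions are those of GENCODE vM21. Of the listed symbols 4 had no row in the table, and 1 listed gene is not reported here. On simulated data with 200 genes changed by 1 on the log2 scale, the fit called 173 of them and 11 unchanged genes of 14172. Tables were made with Python 3.11.15 and pandas 2.3.3, and exact tests with scipy 1.17.1. The alternatives were another pseudocount, minimum and scaling, quantile normalization, no trend, no moderation, a replicate block and each tumor left out.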

Additional observations from a re-analysis of the deposited data

How the results depend on the processing

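Of the 36 antiviral genes, 16 kept their direction and their side of the threshold under all 14 alternatives. The count of antiviral genes higher in ACT + NKTR-214 was 4 as reported and 3 to 6 with each tumor left out, and the count lower was 2 as reported and 0 to 5 with each tumor left out, with 5 in the fit without ACT + NKTR-214 replicate 3. Without a minimum FPKM 1 was lower, and with quantile normalization 4 (11.1%) were lower, where the share lower among all genes tested went from 8.28% to 32.1%. With each gene's own variance limma called 0 antiviral genes in either direction (smallest adjusted p = 0.0628; at an unadjusted p under 0.05, 4 were higher and 2 lower). In that fit it called 0 receptor and kinase genes (5 higher unadjusted), 0 of the sensing list (7 higher unadjusted), 0 inhibitors in either direction (8 higher and 1 lower unadjusted), 1 interferon-γ gene as higher, and 1 of the other interferon-stimulated genes as higher and 0 as lower (4 lower unadjusted). The median log2 fold change of the antiviral genes moved by less than the spread between tumors (0.181) in every alternative.

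Sensing genes lower went from 0 to 2 under 75th percentile scaling as under quantile normalization, and sensing genes higher ranged from 4 to 10 with each tumor left out. Other interferon-stimulated genes lower went from 3 to 6 with 75th percentile scaling and to 7 with quantile normalization, and ranged from 2 to 5 with each tumor left out. Interferon-γ genes lower ranged from 0 to 1, with the 1 in the fit without ACT + IL-2 replicate 3. The 1 inhibitor gene that was lower, *Otud3*, was not called without a minimum FPKM (0 lower) and was lost on leaving out ACT + IL-2 replicate 3 or either of ACT + NKTR-214 replicates 1 and 2, a range of 0 to 1.

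Values near 0 changed sign in 8 antiviral genes, at adjusted p-values over 0.05 throughout. With 75th percentile scaling *Oasl2* went to -0.013. With 1 tumor left out, *Isg15* ranged from -0.23 to 0.11, *Mx2* from -0.18 to 0.065, *Oasl2* from -0.033 to 0.26, *Dhx58* from -0.24 to 0.038, *Ifi44* from -0.27 to 0.0087, *Bst2* from -0.15 to 0.021, *Trim21* from -0.11 to 0.025 and *Parp9* from -0.10 to 0.034. *Irf7* (adjusted p = 0.0563) and *Cmpk2* (adjusted p = 0.08) missed the threshold without a minimum FPKM. *Ifih1* (adjusted p = 0.0488) and *Bst2* (adjusted p = 0.0473) were lower with quantile normalization.

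The replicate numbers do not name shared mice, and deviations of same-numbered tumors correlated at -0.21, -0.07 and 0.40. The replicate block left 4 antiviral genes higher and 2 lower. Of the 20 type I and III interferon genes 15 were listed at 0 in all 6 tumors and none reached the minimum. The fit without a minimum held the other 5, of which limma called 0 (0 at an unadjusted p under 0.05, smallest adjusted p = 0.18). How reads shared by near-identical interferon genes were counted is not known.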

Other observations

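Some paralogs of the antiviral genes had values of their own, and these genes were named after their values were seen. *Ifit1bl1* was separate between the groups, with 0.831, 0.368 and 0.323 FPKM with IL-2 and 2.22, 2.66 and 1.03 FPKM with NKTR-214 (log2 fold change 0.95, adjusted p = 0.00116, and 0.0538 without ACT + IL-2 replicate 2), while *Ifit1* was not called. *Ifit3b* had 4.05, 3.96 and 4.12 FPKM with IL-2 and 2.14, 1.82 and 4.65 FPKM with NKTR-214, with NKTR-214 values that enclosed the IL-2 range as in *Ifit3*, with which it shares sequence (log2 fold change -0.45, adjusted p = 0.127). Of the *Oas1a* paralogs listed, *Oas1c* was higher, with 0.917, 0.783 and 0.669 FPKM with IL-2 and 1.52, 2.15 and 1.18 FPKM with NKTR-214 (log2 fold change 0.53, adjusted p = 0.00883, and 0.0609 without ACT + IL-2 replicate 2), and *Oas1b* and *Oas1g* were not called. The latter differed by 0.049 and -0.10 on the log2 scale, at adjusted p-values of 0.834 and 0.668. The Schlafen genes, known as regulators of lymphocyte growth, counted 3 higher (*Slfn1*, *Slfn5* and *Slfn8*) and 1 lower (*Slfn9*) of the 4 listed, beside 20.7% higher and 8.28% lower among all genes tested. *Slfn5* lost its call without ACT + IL-2 replicate 2 (adjusted p = 0.109). *Slfn1* had 4.82, 2.59 and 2.04 FPKM with IL-2 and 14.4, 19.8 and 12.7 FPKM with NKTR-214 (log2 fold change 2.04, adjusted p = 5.12e-06), and *Slfn9* had 9.56, 7.34 and 9.51 FPKM with IL-2 and 5.75, 5.71 and 4.68 FPKM with NKTR-214 (log2 fold change -0.62, adjusted p = 0.00778).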
